A study of Mus musculus with 8 samples.

Results

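Complement transcripts were followed in macrophages of the infarcted mouse heart that had been cultured with or without interleukin 21 (IL-21), a T cell cytokine. The 8 genes were taken by name from the 53342 genes in the deposited tables: the C1q chains C1qa, C1qb and C1qc, the components C3, Cfb and Cfp, and the anaphylatoxin receptors C3ar1 and C5ar1. All 8 had enough counts to be tested, among 5256 genes that passed the filter on low counts. The donors were wild-type C57BL/6 animals 8 weeks old, and cells were taken at day 3 after the infarct. They were sorted by the surface antigen Ly6C into Ly6Chi cells (high) and Ly6Clo cells (low) and then kept in serum-containing medium for 24 hours, either without IL-21 or with IL-21 at 100 ng/mL. There were thus 4 groups with 2 libraries each, numbered 1 and 2 in the sample titles. The labels do not say whether these came from separate mice or cultures, so the spread between them may be technical. Cells from mice that lack the IL-21 receptor, which the study's design names, were not analysed here.

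Complement is a cascade of plasma and tissue proteins that tags microbes, immune complexes and dying cells. C1q, built from A, B and C chains that are encoded by neighbouring genes, binds the target and starts the classical pathway, and it is made largely by macrophages. C3 is the protein on which all the pathways converge, factor B (Cfb) and properdin (Cfp) form and stabilise the alternative pathway enzyme that cleaves it, and the small fragments C3a and C5a act on cells through the receptors C3aR (C3ar1) and C5aR1 (C5ar1).

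The libraries read the 3′ end of messenger RNA and held 224329 to 483593 deposited counts each. Levels are given as CPM, the count normalised to the scaled library total, and 3 counts correspond to 6.58 to 14.9 CPM. Ly6c2, which encodes the sorting antigen, was at 372 to 545 CPM in the 4 Ly6Chi libraries and at 12.0 to 74.6 CPM in the 4 Ly6Clo libraries. All 7 macrophage markers had counts, with a sum of 6807 to 11537 CPM per library. Libraries of the same number also differed together: 431 of 5256 genes (8.2%) were apart between numbers 1 and 2 in an edgeR fit that accounted for group, with 4.6% higher and 3.6% lower in number 2, and 0 of the 8 complement genes were among them. The lowest adjusted p of the 8 in that edgeR test was 0.187, for Cfb. In sorted cells in bulk, fewer cells that make a transcript and less of it per cell cannot be told apart.

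The 3 C1q genes lie side by side on the minus strand of chromosome 4 (GRCm38): C1qb (ENSMUSG00000036905) at 136880129 to 136886187, C1qc (ENSMUSG00000036896) at 136889804 to 136893065 and C1qa (ENSMUSG00000036887) at 136895917 to 136898803. No other annotated gene overlaps them. C1qa was at 496 and 477 CPM in Ly6Chi libraries 1 and 2 without IL-21 and at 580 and 561 CPM with it. In Ly6Clo libraries it was at 681 and 669 CPM without and at 859 and 1018 CPM with IL-21. All 4 Ly6Clo values were therefore above all 4 Ly6Chi values, and within each subset both stimulated values were above both unstimulated ones.

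C1qb was at 320 and 461 CPM in Ly6Chi without IL-21, 550 and 492 CPM in Ly6Chi with it, 515 and 511 CPM in Ly6Clo without and 735 and 688 CPM in Ly6Clo with it. The stimulated Ly6Chi and the unstimulated Ly6Clo values overlapped. C1qc was at 455 and 511 CPM in Ly6Chi without IL-21, 478 and 596 CPM in Ly6Chi with it, 735 and 582 CPM in Ly6Clo without and 1003 and 850 CPM in Ly6Clo with it. For C1qc the stimulated and unstimulated Ly6Chi values overlapped, while the stimulated Ly6Clo libraries stood above the other 6.

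Summed over the 3 chains, C1q ranged from 1271 to 2598 CPM. The order of the groups was Ly6Chi without IL-21 (1271 and 1449 CPM), Ly6Chi with IL-21 (1608 and 1648 CPM), Ly6Clo without IL-21 (1931 and 1762 CPM) and Ly6Clo with IL-21 (2598 and 2556 CPM). Neighbouring groups in that order did not overlap in the sum, although they did for single chains as given above. The share of all genes with such an order was not counted, nor that with stimulated Ly6Clo above all others, as for C1qc. For the pairs of groups compared below, 14.5 to 17.0% of all genes were apart in a given direction. The order is therefore given as a description only. As a share of all deposited counts, the 3 chains made up 0.119 to 0.134% in Ly6Chi without IL-21 and 0.233 to 0.242% in Ly6Clo with it. The composition of the sum varied little: C1qa gave 32.9 to 39.8% of it, C1qb 25.2 to 34.2% and C1qc 29.7 to 38.6%. Over the 8 libraries Pearson's r of log2 CPM was 0.83 between C1qa and C1qb, 0.88 between C1qa and C1qc and 0.82 between C1qb and C1qc. These values describe 8 libraries that share groups and replicate numbers.

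**Figure D1:**
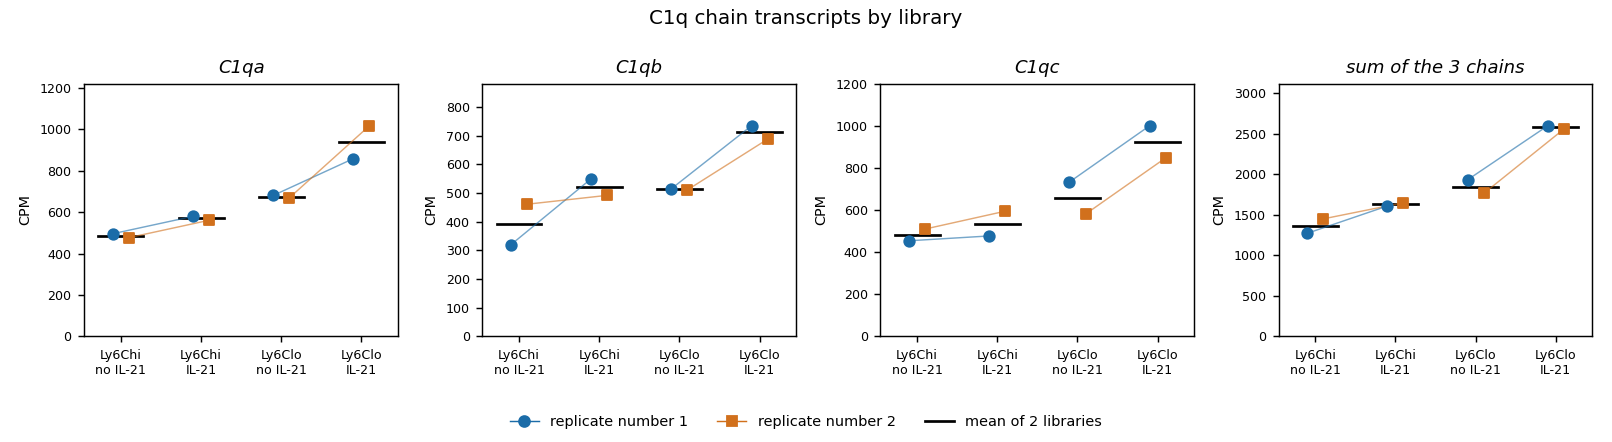
Levels of C1qa, C1qb, C1qc and their sum in CPM (linear axes from 0) in the 4 groups on the horizontal axis. Each point is 1 library, coloured by replicate number, thin lines join libraries of the same number within a subset, and black bars are means of 2 libraries. The sum is at 1271 and 1449 CPM in unstimulated Ly6Chi and at 2598 and 2556 CPM in stimulated Ly6Clo libraries.

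Because the C1q chains varied together over the libraries, the sequence just upstream of C1qb is shown, beside that of C3ar1, whose level varied least of the 8. Both were taken from RefSeq promoter windows (GRCm38.p6), which matched 6 of the 8 genes, with none for C1qa and Cfb. They are printed 5′ to 3′ on the gene's strand (minus), without the bases that lie inside the annotated gene. Capitals mark matches on either strand to TGCTGA, the core of the site bound by Maf factors, or to GAGGAA, a core bound by PU.1 and other ETS factors, both of which act in macrophages. These 2 motifs did not overlap each other in the stretches shown.
C1qb, chr4:136886201-136886450: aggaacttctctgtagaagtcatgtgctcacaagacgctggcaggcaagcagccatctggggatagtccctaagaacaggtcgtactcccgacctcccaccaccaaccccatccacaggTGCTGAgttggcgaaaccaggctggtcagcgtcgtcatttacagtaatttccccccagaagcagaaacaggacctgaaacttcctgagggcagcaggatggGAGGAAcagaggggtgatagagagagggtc
C3ar1, chr6:122856162-122856407: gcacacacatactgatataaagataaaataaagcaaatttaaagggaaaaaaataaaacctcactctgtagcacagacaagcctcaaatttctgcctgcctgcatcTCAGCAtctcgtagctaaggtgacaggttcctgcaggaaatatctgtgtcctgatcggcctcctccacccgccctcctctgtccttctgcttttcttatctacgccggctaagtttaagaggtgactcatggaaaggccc
In the C1qb stretch TGCTGA began 131 bases before the RefSeq start and GAGGAA 30 bases before it. Over all 32544 distinct windows of 300 bases, 19.5% held TGCTGA and 28.1% GAGGAA, so such matches are common. TGCTGA was found in 4 of the 6 windows of these genes (C1qb, C3, C3ar1 and C5ar1) and GAGGAA in 3 of 6 (C1qb, C1qc and Cfp). The C1qc window thus held no TGCTGA, and C1qa was not searched. The STAT-type motif TTCNNNGAA, present in 8.33% of all windows, and an interferon-response type of motif (GAAA, 2 bases of any kind, GAAA), present in 3.45%, were in 0 of the 6. A match is a run of letters and not a measured binding site.

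The first question was whether the C1q chains differ between the subsets. Averaged over both culture conditions, the fitted level was 1.51-fold higher in Ly6Clo than in Ly6Chi for C1qa, 1.53-fold for C1qc and 1.34-fold for C1qb. The 4-library means (SD, n = 4) were 528 ± 49.8 against 807 ± 165 CPM for C1qa, 510 ± 61.6 against 793 ± 178 CPM for C1qc and 456 ± 97.7 against 612 ± 116 CPM for C1qb. A gene was called where the edgeR p, adjusted over all genes, was under 0.05. In this comparison 0.19% of the 5256 genes were called, and 0 of the 8 complement genes were among them. The log2 fold changes were 0.60 for C1qa (SE 0.15, 95% interval 0.28 to 0.91), 0.61 for C1qc (SE 0.16, 0.27 to 0.96) and 0.42 for C1qb (SE 0.16, 0.07 to 0.77). Their edgeR adjusted p values were 0.193, 0.202 and 0.538.

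These calls turned on how the replicate number was treated. With the number as a block in the edgeR fit, the log2 fold changes stayed at 0.60 (SE 0.11) for C1qa and 0.61 (SE 0.12) for C1qc, and both passed with adjusted p values of 0.00201 and 0.00367. In that fit 2.51% of all genes were called, and C1qb, at 0.41 (SE 0.13), did not pass (edgeR adjusted p 0.0793). Over all 16 alternatives tried, the edgeR, DESeq2 or limma-voom adjusted p ranged from 0.00201 to 0.607 for C1qa and from 0.00367 to 0.677 for C1qc, and among these 16 only the block called either gene. Of all genes 2.64% were higher in every Ly6Clo library than in every Ly6Chi library, and C1qa was the 1 member that did so.

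Within the unstimulated cultures the subset difference was 0.47 for C1qa (SE 0.21), 0.44 for C1qc (SE 0.23) and 0.39 for C1qb (SE 0.23) on the log2 scale. Within the stimulated cultures it was 0.72 for C1qa (SE 0.21), 0.79 for C1qc (SE 0.23) and 0.45 for C1qb (SE 0.23). None of these passed without the block (edgeR adjusted p 0.995 for all 3 chains without IL-21, and 0.725, 0.725 and 0.936 with it), where 0.0381% and 0.019% of all genes did. With the block, C1qa and C1qc passed in the stimulated cultures at edgeR adjusted p values of 0.0208 and 0.0204, among 0.78% of all genes, and in the unstimulated cultures, where the block called 0.59% of all genes, no chain passed. Over the alternatives for that comparison the adjusted p ranged from 0.0208 to 1 for C1qa and from 0.0204 to 1 for C1qc. The 2 Ly6Clo libraries were above the 2 Ly6Chi libraries for all 3 chains both without IL-21, as for 16.9% of all genes, and with it, as for 16.2%. Each chain was higher in Ly6Clo in all 4 comparisons of libraries with the same number and stimulation, as were 10.9% of all genes. For C1qc the ratio was 1.61 in number 1 and 1.14 in number 2 without IL-21, and 2.09 and 1.43 with it. For C1qa it was 1.37 and 1.40 without IL-21, and 1.48 and 1.81 with it.

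The second question was whether IL-21 changed the C1q chains. Averaged over the subsets, fitted levels with IL-21 were 1.36-fold those without it for C1qb, 1.28-fold for C1qa and 1.25-fold for C1qc, and none of the 3 passed. The log2 fold changes were 0.44 for C1qb (SE 0.16, 95% interval 0.09 to 0.79), 0.35 for C1qa (SE 0.15, 0.04 to 0.67) and 0.32 for C1qc (SE 0.16, -0.02 to 0.67). The edgeR adjusted p values were 0.781, 0.833 and 0.97, and 0.171% of all genes were called in this comparison. With the replicate number as a block none of the 3 passed either, at edgeR adjusted p values of 0.0993, 0.17 and 0.327. All 3 chains were higher with IL-21 in each of the 4 comparisons of libraries with the same number and subset, as were 9.87% of all genes. Over all libraries the 4 with and the 4 without IL-21 overlapped for all 8 complement genes. Overlap was the rule among all genes too, of which 2.19% were higher and 1.52% lower in every stimulated library. That comparison pools the subsets, so it says little about these 8 genes.

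In Ly6Clo cells the log2 fold changes with IL-21 were close to each other, at 0.48 for C1qa (SE 0.21), 0.50 for C1qc (SE 0.22) and 0.47 for C1qb (SE 0.23). In Ly6Chi cells they were 0.23 for C1qa (SE 0.21), 0.15 for C1qc (SE 0.23) and 0.41 for C1qb (SE 0.24). All 6 had an edgeR adjusted p of 1, where 0.133% of all genes were called in Ly6Clo and 0.019% in Ly6Chi. The summed C1q ratio of stimulated to unstimulated libraries was 1.35 in number 1 and 1.45 in number 2 of Ly6Clo, and 1.26 and 1.14 in Ly6Chi. Within Ly6Clo the stimulated libraries were above the unstimulated ones for C1qa, C1qb, C1qc and Cfp, 4 of the 8, against 15.0% of all genes, and within Ly6Chi for C1qa, C1qb and Cfb, 3 of the 8, against 15.9%. The IL-21 effect in Ly6Clo minus that in Ly6Chi was 0.25 for C1qa (SE 0.30, 95% interval -0.39 to 0.88), 0.35 for C1qc (SE 0.32, -0.34 to 1.04) and 0.06 for C1qb (SE 0.33, -0.64 to 0.75), each with an edgeR adjusted p of 1. No gene passed that test (0% of 5256), while 92 genes had an unadjusted p under 0.05 by edgeR and 0 passed by DESeq2 or limma-voom. Each interval holds both 0 and a difference as large as the averaged effect of that chain.

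**Figure D2:**
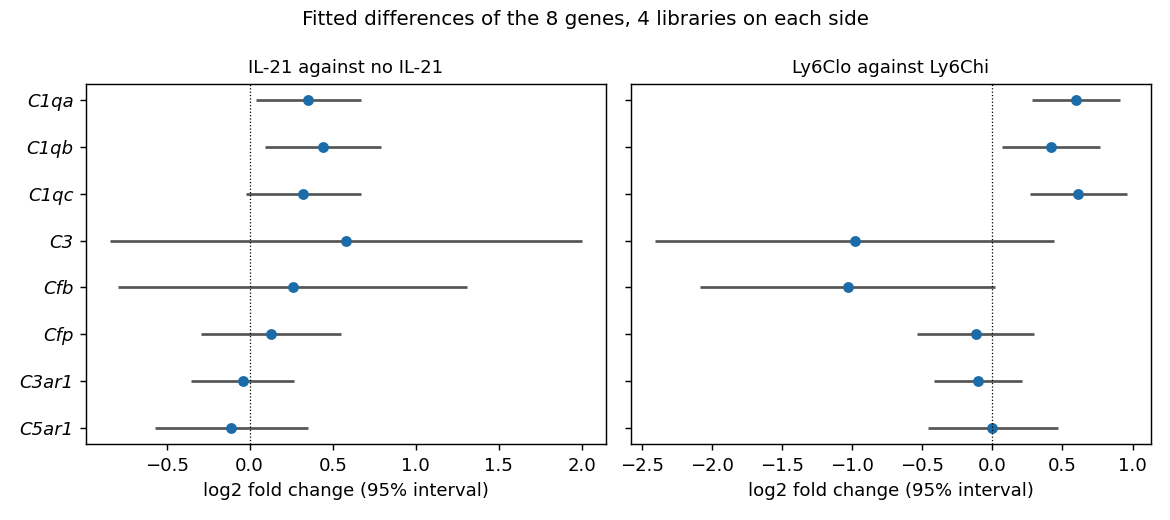
Fitted log2 fold changes (points) with 95% intervals (lines) for the 8 complement genes, on the left for IL-21 against no IL-21 averaged over subsets and on the right for Ly6Clo against Ly6Chi averaged over stimulation, with 4 libraries on each side. The C1q chains lie at 0.32 to 0.44 on the left and 0.42 to 0.61 on the right, and the widest intervals belong to C3 and Cfb. The horizontal scales of the panels differ.

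C3, the central component (ENSMUSG00000024164, chromosome 17, 57203970 to 57228136, minus strand), was scarce in all groups. In Ly6Chi, libraries 1 and 2 had 12 and 4 counts without IL-21 and 14 and 2 with it, and in Ly6Clo 0 and 8 without and 4 and 12 with it. The levels were 49.2 and 15.3 CPM, 52.7 and 9.93 CPM, 0 and 17.6 CPM, and 16.0 and 29.6 CPM in the same order, and every group overlapped each of the others. In Ly6Clo library 1 without IL-21 the count of 0 allows up to 12.5 CPM. The fitted log2 fold change was 0.58 for IL-21 (SE 0.66) and -0.98 for Ly6Clo against Ly6Chi (SE 0.66), with edgeR adjusted p values of 1 and 0.773. At 56 counts over 8 libraries, no difference in C3 was called at this depth. C3 passed the filter only through the Ly6Chi libraries numbered 1 (49.2 and 52.7 CPM), so its subset value is tied to the filter. Within number 2 C3 was higher in Ly6Clo, with ratios of 1.13 without and 2.65 with IL-21. Within number 1 the ratios were 0.0391 and 0.329. Without Ly6Chi library 1 with IL-21 the averaged IL-21 value of C3 was -0.26, and over the libraries left out in turn it ran from -0.26 to 2.88.

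The mean level of factor B was lower in Ly6Clo than in Ly6Chi without passing the test, and within Ly6Clo the replicate numbers stood apart. Cfb (ENSMUSG00000090231, chromosome 17, 34856374 to 34862518, minus strand) was at 197 and 240 CPM in Ly6Chi libraries 1 and 2 without IL-21 and at 264 and 243 CPM with it. In Ly6Clo it was at 33.2 and 156 CPM without IL-21 and at 64.0 and 180 CPM with it. All 4 Ly6Clo values were below all 4 Ly6Chi values, as was the case for 2.74% of all genes, and the libraries numbered 1 in Ly6Clo were the lowest of the 8, with 8 and 16 counts. The log2 fold change of Ly6Clo against Ly6Chi was -1.03 (SE 0.44, 95% interval -2.09 to 0.02) with an edgeR adjusted p of 0.637, so it did not pass. Within number 1 the ratio of Ly6Clo to Ly6Chi was 0.177 without and 0.248 with IL-21, and within number 2 it was 0.651 and 0.742.

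The call of Cfb depended on a single library and on the filter. Without Ly6Clo library 2 without IL-21 the log2 fold change was -1.85 (SE 0.35) and passed at an edgeR adjusted p of 0.0429. With no filter on low counts the value was nearly the same, at -1.01, but its SE was 0.25 and it passed at 0.0363, and over all 16 alternatives the adjusted p ran from 0.0363 to 0.879. The block on replicate number gave -1.11 (SE 0.28) and an edgeR adjusted p of 0.0721. For IL-21 the averaged log2 fold change was 0.26 (SE 0.44, edgeR adjusted p 1), with ratios of 1.34 and 1.01 in Ly6Chi numbers 1 and 2 and 1.87 and 1.15 in Ly6Clo. Without Ly6Clo library 2 with IL-21 that value was -0.24, and without Ly6Clo library 1 without IL-21 it was -0.03.

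The counts of Cfb are uncertain, since Gm20547, annotated as protein-coding, spans Cfb and its neighbour C2 on the same strand and reads can match both. Gm20547 was at 230, 259, 282 and 288 CPM in the Ly6Chi libraries and at 49.8, 198, 87.9 and 234 CPM in the Ly6Clo libraries, in the order in which Cfb was given, and of all genes compared it had the highest Pearson r with Cfb. C2 itself is named in the wider list and did not pass the filter. Cfb and Gm20547 summed gave 426 to 546 CPM in Ly6Chi and 83.0 to 414 CPM in Ly6Clo. For that sum the log2 fold change of Ly6Clo against Ly6Chi was -0.95 (SE 0.47, edgeR adjusted p 0.676), close to that of Cfb alone.

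**Figure D3:**
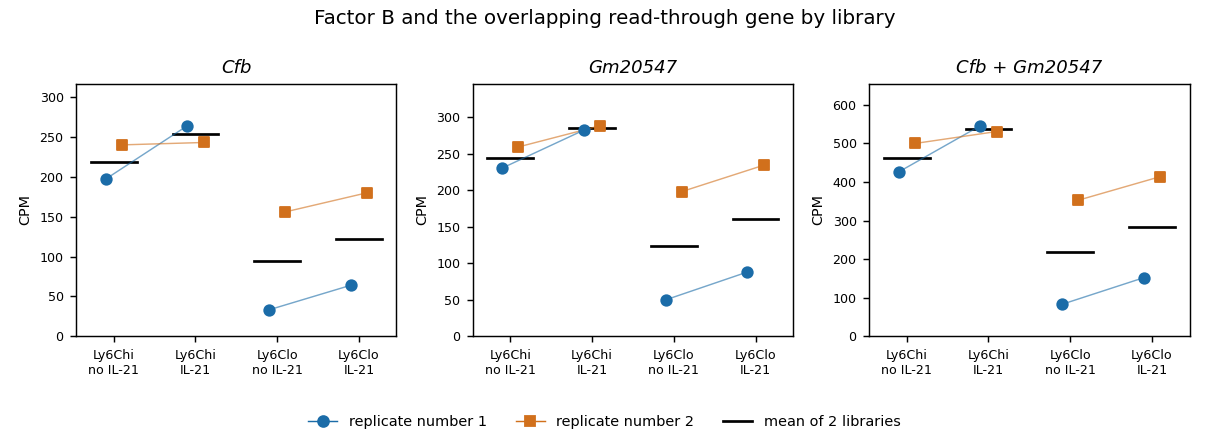
Levels of Cfb, of the overlapping gene Gm20547 and of their sum in CPM (linear axes from 0) by group. Each point is 1 library, coloured by replicate number, thin lines join libraries of the same number within a subset and black bars are means of 2 libraries. In Ly6Clo the libraries numbered 1 (33.2 and 64.0 CPM for Cfb) lie below those numbered 2 (156 and 180 CPM).

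Summed levels of Ly6Chi monocyte and of neutrophil markers were lower in every Ly6Clo than in every Ly6Chi library, as Cfb was. The 7 Ly6Chi monocyte markers, all of which had counts, summed to 922 to 1265 CPM in Ly6Chi and 233 to 500 CPM in Ly6Clo libraries. That sum includes Ly6c2, the gene of the sorting antigen, at 372 to 545 CPM in Ly6Chi and 12.0 to 74.6 CPM in Ly6Clo. Its separation by subset was therefore partly set by the sort, and says little beyond it. The sort antigen gene Ly6c2 (log2 fold change -3.19, SE 0.30, edgeR adjusted p 0.000837) and Chil3 (-2.16, SE 0.38, 0.036) were called lower in Ly6Clo. The other markers of that list were not, and Ccr2 (-0.25, SE 0.61, edgeR adjusted p 0.964) and F13a1 (-0.40, SE 0.44, 0.897) overlapped between the subsets and were higher in Ly6Clo within number 1. Of 7 neutrophil markers 5 had counts, and they summed to 1400 to 2338 CPM in Ly6Chi and 641 to 1262 CPM in Ly6Clo. Most of that sum was Mmp8, the neutrophil collagenase gene, at 1285 to 2154 CPM in Ly6Chi and 538 to 1196 CPM in Ly6Clo (log2 fold change -0.98, SE 0.29, edgeR adjusted p 0.432, not called). S100a8 and Csf3r had counts in all 8 libraries but overlapped between the subsets. S100a8 was at 74.5 to 139 CPM in Ly6Chi and 45.7 to 104 CPM in Ly6Clo, and Csf3r at 20.5 to 39.7 CPM and 20.8 to 32.0 CPM. S100a9 and Cxcr2 did not exceed 7.53 CPM, and Ly6g and Retnlg were listed at 0 throughout. The lower neutrophil sum in Ly6Clo thus rested on Mmp8. The part of these markers in the Cfb difference was not tested.

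Properdin, the stabiliser of the alternative pathway enzyme, showed no difference that held up. Cfp (ENSMUSG00000001128, chromosome X, 20925454 to 20931555, minus strand) was at 213 and 156 CPM in Ly6Chi libraries 1 and 2 without IL-21, at 211 and 139 CPM in Ly6Chi with it, at 137 and 158 CPM in Ly6Clo without and at 184 and 187 CPM in Ly6Clo with it. Both stimulated Ly6Clo values were above both unstimulated ones, while in Ly6Chi the values split by number and not by stimulation. The log2 fold change was 0.13 for IL-21 (SE 0.20, 95% interval -0.29 to 0.55) and -0.12 for Ly6Clo against Ly6Chi (SE 0.20, -0.54 to 0.30), with edgeR adjusted p values of 1 and 0.939.

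The receptor for C3a was the steadiest of the 8 transcripts. C3ar1 (ENSMUSG00000040552, chromosome 6, 122847138 to 122856161, minus strand) was at 2308 and 2494 CPM in Ly6Chi libraries 1 and 2 without IL-21, 1980 and 2309 CPM in Ly6Chi with it, 2209 and 1890 CPM in Ly6Clo without and 2258 and 2090 CPM in Ly6Clo with it. Without IL-21 both Ly6Clo values were below both Ly6Chi values, as was so for Cfb and for 17.0% of all genes, while with IL-21 they overlapped. With IL-21 Cfb was the 1 member lower in both Ly6Clo libraries than in both Ly6Chi libraries, as were 16.7% of all genes. The highest C3ar1 library was 1.32 times its lowest, against 2.14 to 2.30 times for the C1q chains and 7.93 times for Cfb. The log2 fold change was -0.04 for IL-21 (SE 0.15, 95% interval -0.35 to 0.27) and -0.10 for Ly6Clo against Ly6Chi (SE 0.15, -0.42 to 0.21). With edgeR adjusted p values of 1 and 0.925 neither passed, and changes as large as the ends of those intervals remain possible.

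C5ar1, which encodes the main receptor for C5a on myeloid cells (ENSMUSG00000049130, chromosome 7, 16246743 to 16259540, minus strand), varied more between libraries than between groups. It was at 262 and 256 CPM in Ly6Chi libraries 1 and 2 without IL-21, 203 and 348 CPM in Ly6Chi with it, 378 and 224 CPM in Ly6Clo without and 264 and 219 CPM in Ly6Clo with it. The highest library was from unstimulated Ly6Clo and the lowest from stimulated Ly6Chi cells, and every group overlapped each of the others. The log2 fold change was -0.11 for IL-21 (SE 0.21, 95% interval -0.57 to 0.35) and 0.00 for Ly6Clo against Ly6Chi (SE 0.22, -0.46 to 0.47), with edgeR adjusted p values of 1 and 0.999.

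**Figure D4:**
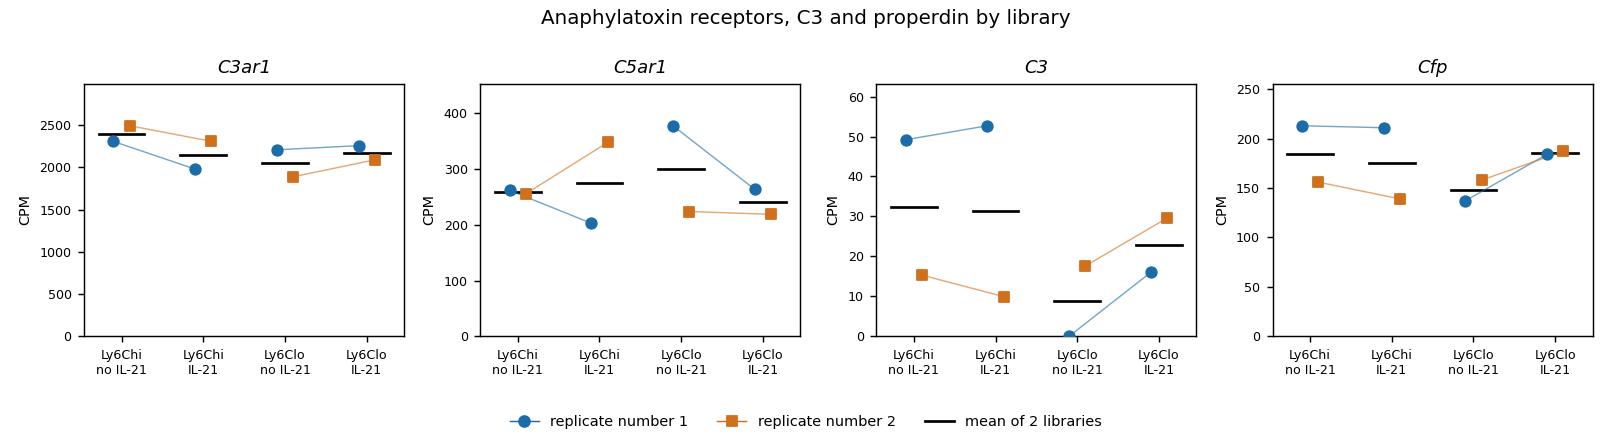
Levels of C3ar1, C5ar1, C3 and Cfp in CPM (linear axes from 0) by group, with 1 point per library coloured by replicate number, thin lines joining libraries of the same number within a subset and black bars for means of 2 libraries. C3ar1 stays between 1890 and 2494 CPM, while C3 lies between 0 and 52.7 CPM.

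Over the 8 genes together, 6 had a log2 fold change above 0 for the averaged IL-21 effect, as had 48.9% of all genes. The median was 0.29 against -0.01 over all 5256 genes. For Ly6Clo against Ly6Chi 4 of 8 were above 0, as were 50.4% of all genes, with a median of -0.05 against 0.00 over all genes. The 4 were the C1q chains and C5ar1, whose value rounds to 0.00. Cfb was among those below 0. C3 was below 0 too, but it passed the filter only through Ly6Chi libraries, so its side is not read as a result. In the fit as reported, without the replicate block, 0 of these genes passed in each of the 7 contrasts of subset and stimulation. At an unadjusted p under 0.05 there were 2 of the 8 for the averaged IL-21 effect (C1qa and C1qb) and 3 for the averaged subset difference (the C1q chains), against 280 and 409 of all genes.

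Most of a wider list of 50 other complement genes was below the level that could be tested. Only 8 of the 50 passed the filter, 23 had no count in any library, and the remaining ones had at most 59 counts over all 8 libraries. None of the 9 lectin pathway genes, of the 9 genes of C5 and the terminal pathway or of the 6 further genes of the alternative pathway and its soluble regulators passed. Of the 8 C1 protease, C4, C2 and C1 inhibitor genes 1 passed, the C1r protease gene C1ra (22.9 to 67.8 CPM). Of the membrane regulators 1 of 7 passed, Cr1l, which encodes the rodent regulator Crry (69.7 to 114 CPM).

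Itgb2, the beta chain of complement receptors 3 and 4, was at 695 to 1115 CPM, whereas Itgam, the alpha chain of complement receptor 3, was listed at 0 in all 8 libraries. Whether this 0 comes from the annotation or the counting behind the deposited values was not tested, so it is not read as a level. Of that list of 5 receptor genes only Itgb2 passed the filter. Of 6 genes for proteins described as binding C1q 5 passed: Cd93 (306 to 698 CPM), Calr (442 to 776 CPM), Lrp1 (441 to 707 CPM), Lair1 (123 to 189 CPM) and C1qbp (79.1 to 133 CPM). For the averaged IL-21 effect 4 of the 8 tested genes were above 0 and 4 below, and 0 passed, with C1ra at 0.81 (SE 0.31, edgeR adjusted p 0.781), Lair1, an inhibitory receptor, at -0.38 (SE 0.19, 0.946), Lrp1, an endocytic receptor, at 0.20 (SE 0.19, 1) and C1qbp at -0.20 (SE 0.25, 1). For Ly6Clo against Ly6Chi 1 of 8 was above 0 and 7 below, while 50.4% of all genes were above 0. The median of the 8 was only -0.03, against 0.00 over all genes. Of the 8, 0 passed, where 0.19% of all genes did, with Itgb2 lowest in p at -0.22 (SE 0.17, edgeR adjusted p 0.809).

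Several of these partner genes differed by replicate number, while no C1q chain was called. Libraries numbered 2 were lower than those numbered 1 for Cd93 (log2 difference -0.63, SE 0.14), Calr (-0.52, SE 0.12), Lrp1 (-0.44, SE 0.12) and Itgb2 (-0.37, SE 0.10). Their edgeR adjusted p values were 0.00382, 0.00672, 0.0170 and 0.0266, so 4 of the 8 tested genes of the wider list were called lower, against 3.6% of all genes. For C1qa, C1qb and C1qc the same difference was 0.04 (SE 0.11), 0.04 (SE 0.13) and -0.05 (SE 0.12).

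Genes whose levels ran most like the mean of the 3 C1q chains were found among 2917 genes with a mean of at least 20 counts other than the 8. Fabp4, a fatty acid binding protein gene, came first with a Pearson r of 0.95 (Spearman rho 0.93) over 8 libraries, followed by Rab8b, a small GTPase gene (r 0.93), and Rftn1, a lipid raft protein gene (r 0.93). Fabp4 was at 250 and 217 CPM in Ly6Chi without IL-21, 361 and 338 CPM in Ly6Chi with it, 365 and 406 CPM in Ly6Clo without and 755 and 653 CPM in Ly6Clo with it. Like the C1q sum, Fabp4 was lowest in unstimulated Ly6Chi and highest in stimulated Ly6Clo libraries, which follows from its choice by r. The nearest genes to Cfb after Gm20547 were Pnp (r 0.96), a purine enzyme gene, and Clec4n (r 0.96), which encodes the receptor dectin 2. Clec4n, picked by its r with Cfb, had its lowest levels in the Ly6Clo libraries numbered 1. It was there at 158 and 176 CPM against 430 and 495 CPM in those numbered 2. For C3ar1 the first was Eif4a3 (r 0.94), for C5ar1 Phf3 (r 0.93) and for Cfp Ap1g1 (r 0.93). These likenesses describe 8 libraries that share groups and replicate numbers, with no test.

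The sum of resident macrophage markers was higher in every stimulated than in every unstimulated library, which was not so for the C1q chains or their sum. Of the 8 markers of Ly6Clo or resident macrophages 7 had counts, and they summed to 1826 to 2196 CPM in the unstimulated and 3044 to 3789 CPM in the stimulated libraries. Most of the sum was Pf4, at 1675 to 1934 CPM without and 2752 to 3550 CPM with IL-21 (log2 fold change 0.77, SE 0.15, edgeR adjusted p 0.0704, not called), while Lyve1 was at 0 and Timd4 and Cd163 did not exceed 7.53 CPM. Between the subsets that sum did not separate as C1q did, with 1997 to 3773 CPM in Ly6Chi and 1826 to 3789 CPM in Ly6Clo. Single markers of the list went different ways. Cx3cr1 had counts only in Ly6Clo libraries (4.15 to 13.2 CPM). Folr2 was at 12.3 to 39.7 CPM in Ly6Chi and 39.5 to 54.0 CPM in Ly6Clo (log2 fold change 1.05, SE 0.40, edgeR adjusted p 0.53, not called). Pf4 (-0.07, SE 0.15), Mrc1 (0.14, SE 0.51) and Nr4a1 overlapped between the subsets. The Ly6Chi monocyte sum was 922 to 942 CPM without and 1087 to 1265 CPM with IL-21 in Ly6Chi, and 233 to 278 CPM without and 318 to 500 CPM with it in Ly6Clo. Fibroblast markers summed to 20.8 to 30.7 CPM without and 116 to 136 CPM with IL-21 in Ly6Clo, but to 69.7 to 160 CPM without and 15.1 to 64.5 CPM with it in Ly6Chi. Cardiomyocyte markers summed to 0 to 2.19 CPM without and 17.3 to 75.9 CPM with IL-21 in Ly6Clo, and to 4.10 to 49.6 CPM without and 0 to 19.9 CPM with it in Ly6Chi. Endothelial markers, with Tie1 at 0, summed to 58.1 to 338 CPM and overlapped between all groups. Nearly all of that sum was Kdr, while Pecam1 did not exceed 7.99 CPM and Cdh5 did not exceed 4.39 CPM. Dendritic cell and T and NK cell markers summed to at most 26.7 and 19.9 CPM. The part of any of these in the C1q levels was not tested.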

How the data were processed

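For each library the authors deposited a table of expected counts per Ensembl gene (53342 genes), named raw per the file headers. Such estimated counts can be fractional, and 53.3 to 59.7% of a library's non-zero deposited values lay more than 0.001 from a whole number. Per the labels' protocols, the kit was a 3′ QuantSeq kit with a module for molecular identifiers. Per the submitters' processing notes, mm10 and DESeq2 were used. Not given in the sources used here are their versions, the aligner, the counter, and whether identifiers and strand entered the counting. Counting limits cover counting error only. GENCODE M21 (GRCm38) matched 53237 of the 53342 identifiers.

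Counts were rounded, kept by filterByExpr (minimum count 10, minimum total 15) and scaled by TMM. They were fitted with 4 group means by robust quasi-likelihood in edgeR 4.0.16 (limma 3.58.1, R 4.3.3). The fit was also run on simulated counts with 2-fold and 4-fold changes and no effect of replicate number. Such changes are larger than the fitted C1q differences, so that run does not bear on them. Residual degrees of freedom were 4, and the biological coefficient of variation was 0.201. SE is the size of the log2 fold change divided by the square root of F, and p-values were adjusted over 5256 genes (Benjamini-Hochberg). Library totals for CPM are sums over genes that passed, times the TMM factor. Ratios within a number add 2 CPM to both levels.

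The members and lists were chosen with earlier results of these data known. All 8 members are named. From the wider list, called genes and up to 4 with the smallest p per contrast are named, as are the 3 genes nearest to a member by Pearson r. Level ranges of the other listed genes that passed, and Gm20547, were added after their values were seen. No label says that a replicate number marks a shared animal or day. Deviations of same-numbered libraries from their group means correlated at 0.23 to 0.41 in all 6 comparisons of groups, so a fit with the number as a block is given where it changes a call. Other alternatives were RLE size factors, DESeq2 1.42.0, limma-voom, no filter, a mean count of at least 20, unrounded values, each library left out, the compared groups alone and, chosen after seeing the data, Cfb and Gm20547 summed.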

Additional observations from a re-analysis of the deposited data

How the results depend on the processing

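Of 506 alternative values of the members' log2 fold changes, 487 kept their direction and their side of the threshold, 6 passed where the reported value did not, and 13 changed sign. With the replicate block 2 of the 8 members passed for Ly6Clo against Ly6Chi averaged and 2 with IL-21 (C1qa and C1qc each time), and 0 in the other 5 contrasts, so the block changed no other member's call. With no filter on low counts 1 member passed for the averaged subset difference (Cfb), and with 1 library left out 0 to 1 did. Values that round to 0.00 were given no sign, so C5ar1 for Ly6Clo against Ly6Chi averaged (0.00, from -0.19 to 0.21 over its alternatives, -0.01 with the block) is not among the 13. These 13 came from leaving out 1 library and concerned values that did not pass: the averaged IL-21 value ran from -0.26 to 2.88 for C3, -0.10 to 0.02 for C3ar1, -0.33 to 0.09 for C5ar1, -0.24 to 1.08 for Cfb and -0.04 to 0.26 for Cfp, the subset value of Cfp from -0.25 to 0.06, the IL-21 value of C1qc in Ly6Chi from -0.02 to 0.31, and the difference of IL-21 effects for C1qb from -0.22 to 0.28. The cause was not tested. C3 was not tested at a mean count of at least 20. Over all genes, calls numbered, for IL-21 in Ly6Chi, in Ly6Clo, averaged and their difference, then for the subset contrast in unstimulated cells, in stimulated cells and averaged, 1, 7, 9, 0, 2, 1 and 10. They were 8, 16, 35, 1, 16, 22 and 58 with no filter, and 14, 29, 60, 1, 31, 41 and 132 with the block. Leaving out 1 library gave 0 to 3, 0 to 7, 5 to 15, 0, 0 to 3, 0 to 2 and 3 to 22. For IL-21 in Ly6Clo limma-voom called 4, a mean count of at least 20 left 2, unrounded values 3 and the compared groups alone 0.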
